A study of Mus musculus with 40 samples.

Results

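The collagen chain genes are the genes whose symbol has the form Col, a type number, the letter a and a chain number, and 28 of the 21347 genes kept from the deposited table fit that form. They were picked by the form of the symbol, and no measured value was a criterion. The set itself was chosen with earlier results of these data known. They were followed in 40 libraries of 4T1, a carcinoma line that arose in the mammary gland of a BALB/c mouse. In 22 libraries it grew alone and in 18 with T cells from C57Bl6 spleens. The culture plastic, polystyrene, was left uncoated or was covered with 1 of 4 matrix proteins at 250 µg/ml, namely vitronectin, fibronectin, collagen I and collagen IV, and the libraries come from 5 experiments. Without T cells there were 5 libraries each for uncoated plastic and fibronectin and 4 for each of the other coats. With T cells there were 4 libraries for uncoated plastic, collagen IV and fibronectin, and 3 for collagen I and vitronectin. Carcinoma cells were seeded at 10000 per cm2, and after a night either T cells at 80000 per cm2 with interleukin 2 at 30 U/mL, or interleukin 2 alone, went on for 24 h. Interleukin 2 is therefore common to all groups. Free and trypsinised cells of a well were combined, so a co-culture library is a mixture of carcinoma and T cell RNA. The carcinoma cells are a single line, and the number of spleens behind a T cell preparation is not given in the sources used here. Experiment 1 holds uncoated plastic and fibronectin only, and experiment 3 holds 1 co-culture, on collagen IV.

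Collagens are secreted proteins in which chains wind into a triple helix, either of one kind of chain or of several. Collagen IV builds the network of basement membranes, the sheet on which epithelia rest, while fibril-forming collagens such as I and V make up the fibres of connective tissue. Other families link fibrils, anchor the basement membrane to the tissue beneath it, or span the plasma membrane, and carcinoma cells both make collagens and bind to them through integrins and discoidin domain receptors.

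Collagen IV genes are arranged in the reference genome in pairs that start next to each other on opposite strands. Whether this arrangement bears on the levels below was not tested. The start sites of Col4a1 and Col4a2 overlap by 22 bases on chromosome 8, those of Col4a3 and Col4a4 have 71 bases between them on chromosome 1, and those of Col4a5 and Col4a6 have 1308 bases between them on chromosome X. The shared start of the most abundant pair is shown because those genes were read at a nearly fixed ratio. It is given on the plus strand at chr8:11312801-11312830 of GRCm38.p6, the assembly called mm10, with the bases that belong to the first exons of both genes in capitals.
Col4a1 and Col4a2 start: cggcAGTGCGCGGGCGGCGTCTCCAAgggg
A pair of 250-base windows before RefSeq gene starts is shown for the chains on which the co-culture results turn. Col11a2 is the 1 chain of 17 called higher in the main comparison with T cells (chr17:34038888-34039137, plus strand), and Col7a1 is a chain whose difference with T cells went both ways between experiments (chr9:108953336-108953585, plus strand). Capitals mark matches on either strand to the TATA, CCAAT and GC box letters spelled out below the windows, and neither window lies in an annotated exon.
Col11a2: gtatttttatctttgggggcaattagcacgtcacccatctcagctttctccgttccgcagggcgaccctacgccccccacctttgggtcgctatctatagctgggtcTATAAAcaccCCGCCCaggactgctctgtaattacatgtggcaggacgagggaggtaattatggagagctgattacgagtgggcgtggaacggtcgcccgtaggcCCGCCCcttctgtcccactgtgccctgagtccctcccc
Col7a1: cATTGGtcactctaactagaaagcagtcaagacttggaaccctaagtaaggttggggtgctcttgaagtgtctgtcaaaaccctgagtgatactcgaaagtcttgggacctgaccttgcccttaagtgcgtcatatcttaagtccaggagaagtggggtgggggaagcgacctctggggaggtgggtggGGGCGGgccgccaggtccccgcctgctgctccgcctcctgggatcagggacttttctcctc
Of the 28 chains, 21 had such a window in the RefSeq table. On either strand TATAAA, the TATA box, was found for 2 of these 21 chains and in 12.4% of all 32851 windows of that length. CCAAT was found for 8 chains and in 33.8% of windows, and GGGCGG, the GC box, for 14 chains and in 32.7%. The AP-1 letters TGANTCA were found for 1 chain and in 6.75% of windows. Counted by window, the unit of these percentages, the chains have 23. Of these, TATAAA was in 2, CCAAT in 8, GGGCGG in 15 and TGANTCA in 1. No motif named here contains another, and a match is a description of letters, not of a bound site. The Col11a2 window starts from a RefSeq start that differs from that of the GENCODE gene model.

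Levels are reads divided by the scaled library size, counted in M reads, and are called per M here. They rest on 18.95 to 47.73 M assigned reads a library, except for 239.13 M in the collagen IV co-culture of experiment 5. A count of 0 allows a level of up to 0.0124 to 0.158 per M, which covers counting error only. All 16 epithelial markers of the carcinoma list averaged 1 per M or more in 4T1 alone. Of 17 T cell markers only Lck did so there (1.76 ± 0.33 per M, SD, n = 22), and each of the 17 was higher in co-culture. Wells of an experiment share its number, and their deviations from the group means went together. Differences are therefore also given from a fit with the experiment as a block, the replicate block, wherever it changed a call.

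Which chains the carcinoma cells express was read from the libraries without T cells. There, 13 of the 28 chains had a mean of 1 per M or more, 6 of them above 100 per M, 4 between 10 and 100, and 3 between 1 and 10. Basement membrane collagen came first. Col4a1, the alpha 1 chain of collagen IV, ran from 490.8 through a median of 659.5 to 836.3 per M, with a mean of 662.5 ± 98.36 (SD, n = 22). Its partner Col4a2 ran from 266 through 402.8 to 534.5 per M, with a mean of 396.8 ± 78.56 (SD, n = 22). Together they held 61.8% ± 4.14 (SD, n = 22) of the signal of the 28 chains when each gene was divided by its exon length, with a range of 53.3% to 66.8%.

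**Figure D1:**
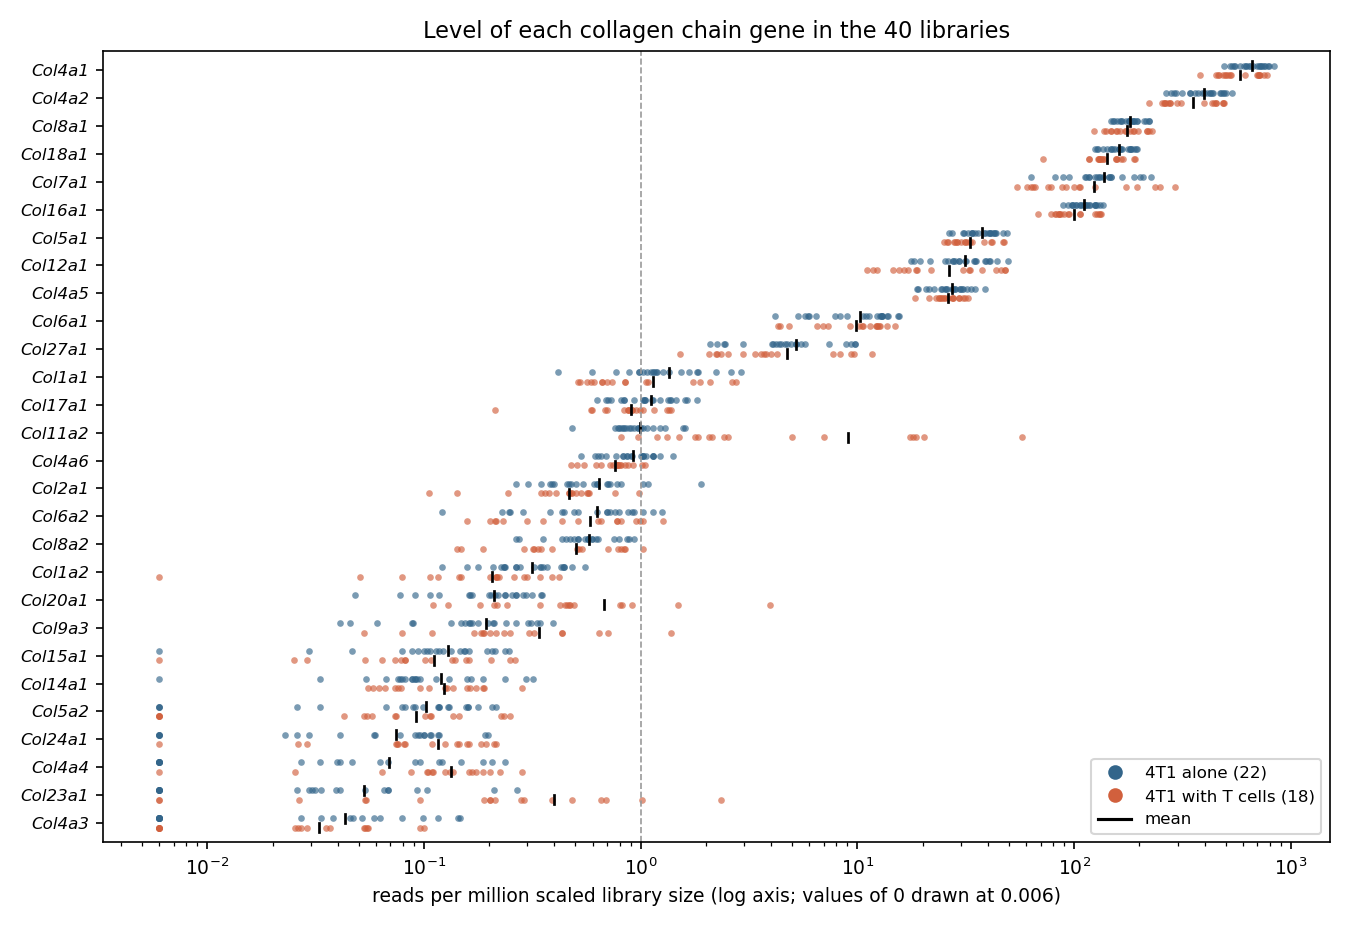
Level of each of the 28 collagen chain genes in reads per M of scaled library size (log axis), 1 point per library, blue for 4T1 alone and orange for co-culture, with the mean of each as a black bar and a dashed line at 1 per M. Col4a1 and Col4a2 lead, 13 chains have a mean of 1 or more without T cells, and some co-cultures of Col11a2, Col20a1 and Col23a1 lie far above the libraries of these chains without T cells.

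The next chains belong to networks and to the sheet-associated families. Col8a1, of the short-chain network collagen VIII, had a level of 181.7 ± 21.86 per M, and Col18a1, whose C-terminal fragment is endostatin, had 161.8 ± 21.75 per M (SD, n = 22 each). Col4a5, a chain of the alternative collagen IV networks, had 27.22 ± 5.131 per M (SD, n = 22). Per kb of exon the means in 4T1 alone were 88.8 for Col4a1, 59.9 for Col4a2, 23.2 for Col8a1, 23.1 for Col18a1 and 4.05 for Col4a5 per M. Col8a1 and Col18a1 were thus next to each other in this order, with SDs per kb of 2.79 and 3.1 that exceed their distance.

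Chains that tie the membrane and fibrils together were also at 10 per M or more. Col7a1, the chain of the anchoring fibrils below epithelia, ran from 63.04 through 131 to 227.2 per M in 4T1 alone, a 3.6-fold range. Col16a1 and Col12a1, chains of fibril-associated collagens, had 111.6 ± 12.81 and 31.44 ± 8.522 per M (SD, n = 22 each). Col6a1, of the beaded filaments of collagen VI, had 10.32 ± 3.559 per M (SD, n = 22). Per kb of exon these levels were 16.5 per M for Col16a1, 13.3 for Col7a1, 2.36 for Col6a1 and 2.06 for Col12a1, so that Col7a1 fell behind Col16a1 once length was counted, by less than its SD per kb of 4.04.

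Fibril-forming collagens were low. Col5a1, a chain of the collagen that starts fibrils, was the only one above 10 per M in 4T1 alone, at 37.67 ± 6.072 (SD, n = 22). Col27a1, a fibrillar chain known from cartilage, had 5.204 ± 2.412 per M and Col1a1, the main chain of bone and skin collagen, 1.351 ± 0.6183 per M (SD, n = 22 each). The fibrillar chains in the table made up 2.62% ± 0.383 of the collagen signal without length correction (SD, n = 22). Col17a1, the transmembrane collagen of hemidesmosomes, had 1.111 ± 0.333 per M (SD, n = 22).

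The threshold of 1 per M passed through closely spaced chains. Just inside it stood Col17a1 at 1.111 and just outside Col11a2 at 0.9879, Col4a6 at 0.9228, Col2a1 at 0.6411 and Col6a2 at 0.6294 per M, all as means over the 22 libraries of 4T1 alone. Below these came Col8a2 (0.5779 per M) and Col1a2 (0.3144 per M), and then 9 chains under 0.25 per M, namely Col20a1, Col9a3, Col15a1, Col14a1, Col5a2, Col24a1, Col4a4, Col23a1 and Col4a3. In 7 chains at least 1 library of 4T1 alone had no read. Of the 28 chains, 17 reached 1 per M in 3 or more libraries, the condition for a test, and 4 of these 17 averaged under 1 per M in 4T1 alone. The other 11 were not tested in the main comparisons and are described by their levels, apart from alternatives with another filter or scaling, and other collagen chains, Col3a1, Col6a3 and Col11a1 among them, were not analysed here.

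Partner chains were not equally abundant, and in the leading pair the ratio was steady. Per M, the Col4a1 level divided by the Col4a2 level was 1.69 ± 0.101 (SD, n = 22) in 4T1 alone and 1.68 ± 0.124 (SD, n = 18) in co-culture, and per kb of exon it averaged 1.5 and 1.49. It stayed between 1.48 and 1.90 in all 40 libraries while the level of Col4a2 itself moved over a 2.01-fold range in 4T1 alone. Among experiments the mean ratio was 1.58 both in experiment 1 (SD 0.0809, n = 2) and in experiment 2 (SD 0.032, n = 5, highest 1.63), and it was highest in experiment 5, at 1.83 ± 0.0485 (SD, n = 5, lowest 1.76). The libraries of experiments 2 and 5 did not overlap in this ratio, a difference for which no test was run.

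Elsewhere one chain of a pair stood far above the other. Per kb of exon in 4T1 alone, Col4a5 averaged 36.3 times Col4a6, whose start lies beside its own, Col6a1 36.4 times Col6a2, Col1a1 8.85 times Col1a2, and Col8a1 206 times Col8a2. Col5a2, the partner of Col5a1 in the common collagen V trimer, had 0.1023 ± 0.0637 per M beside 37.67 for Col5a1 (SD, n = 22). The lower partner rested on few reads in each of these pairs, so the ratios are rough. Col8a1 over Col8a2, without length correction, ran from 159 to 830 in 4T1 alone.

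How far the chains vary between experiments came before any comparison of substrates, since each substrate does not hold the same experiments. In an F test over the 5 experiments, with the 10 group means in the model, 14 of the 17 tested chains passed at an adjusted p under 0.05 (limma, Benjamini-Hochberg), against 83% of all 14701 genes tested, so this count is near the background. edgeR called 14 as well, against 82.7%. The smallest adjusted p was that of Col27a1 (5.28e-17), followed by Col4a2 (3.2e-11) and Col1a1 (4.63e-11). Col17a1, Col4a6 and Col2a1 did not pass.

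The experiments moved chains in different directions. Col4a1 in 4T1 alone averaged 786.6 ± 31.94 per M in experiment 2, 704.4 ± 36.97 in experiment 3, 616.5 ± 23.6 in experiment 4 and 529 ± 24.05 in experiment 5 (SD, n = 5 each). The ranges of experiment 2 (754.1 to 836.3 per M) and experiment 5 (490.8 to 551.7 per M) did not overlap. Col8a1 had the opposite order at these ends, with 155.1 ± 6.924 per M in experiment 2 and 212.4 ± 11.08 in experiment 5 (SD, n = 5 each).

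High values in experiment 2 were shared by several low and middle chains. Col27a1 had 9.046 ± 0.9711 per M there and 2.439 ± 0.3343 in experiment 5 (SD, n = 5 each). Col1a1 had 2.249 ± 0.5212 per M in experiment 2 and 0.8068 ± 0.2369 in experiment 5, and Col7a1 198.5 ± 22.75 and 99.84 ± 23.63 per M (SD, n = 5 each). Within each of these chains every library of 4T1 alone in experiment 2 was above every one in experiment 5. Col6a1 had a further pattern, with 4.751 ± 0.8042 per M in experiment 1 (SD, n = 2) and 6.461 ± 1.046 in experiment 3, beside 12.67 ± 1.169, 12.29 ± 2.498 and 12.08 ± 2.809 in experiments 2, 4 and 5 (SD, n = 5 each).

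**Figure D2:**
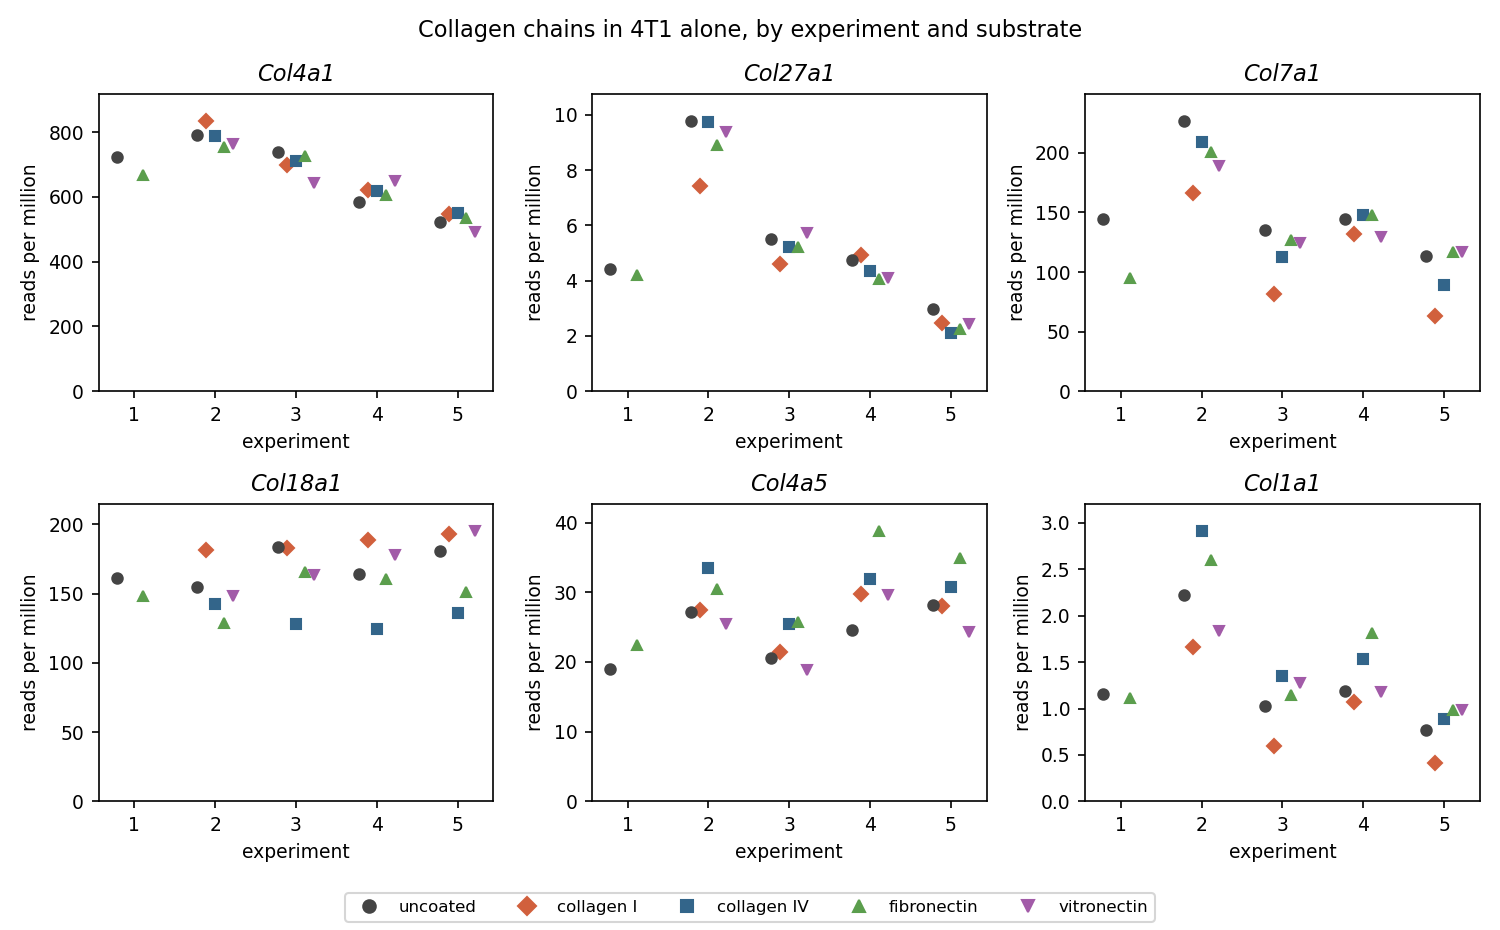
Levels of 6 chains in 4T1 alone, in reads per M of scaled library size (linear axis from 0), by experiment, with 1 symbol per library and colour and shape for the substrate. In Col4a1, Col27a1, Col7a1 and Col1a1 all libraries of experiment 2 are above all of experiment 5, with overlap among other experiments, while Col18a1 separates collagen I (181.5 to 192.9) from collagen IV (124.6 to 142.2) across experiments.

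Experiments 2 to 5 hold all 5 substrates without T cells, 20 libraries in a complete layout, which lets the spread on the log2(value + 1) scale be divided. Between experiments lay 95.1% of the sum of squares of Col4a2, 93.1% of Col4a1, 96.1% of Col27a1 and 89.3% of Col8a1, and between substrates 1.1% to 2.5% of these. Over the 13 chains at 1 per M or more the median share between experiments was 73%, beside 46.4% over the genes tested, and the median share between substrates 14.6% beside 16.5%. Over the 17 tested chains, chosen by the same filter as those genes, the medians were 71.7% and 14.6%. Genes were not matched to the chains by level. Col18a1 and Col17a1 were divided the other way, with 71.4% and 68.5% between substrates and 10% and 9% between experiments. Col4a5 stood between, with 50.3% between experiments and 39.5% between substrates. These shares describe 20 libraries and carry no test.

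**Figure D3:**
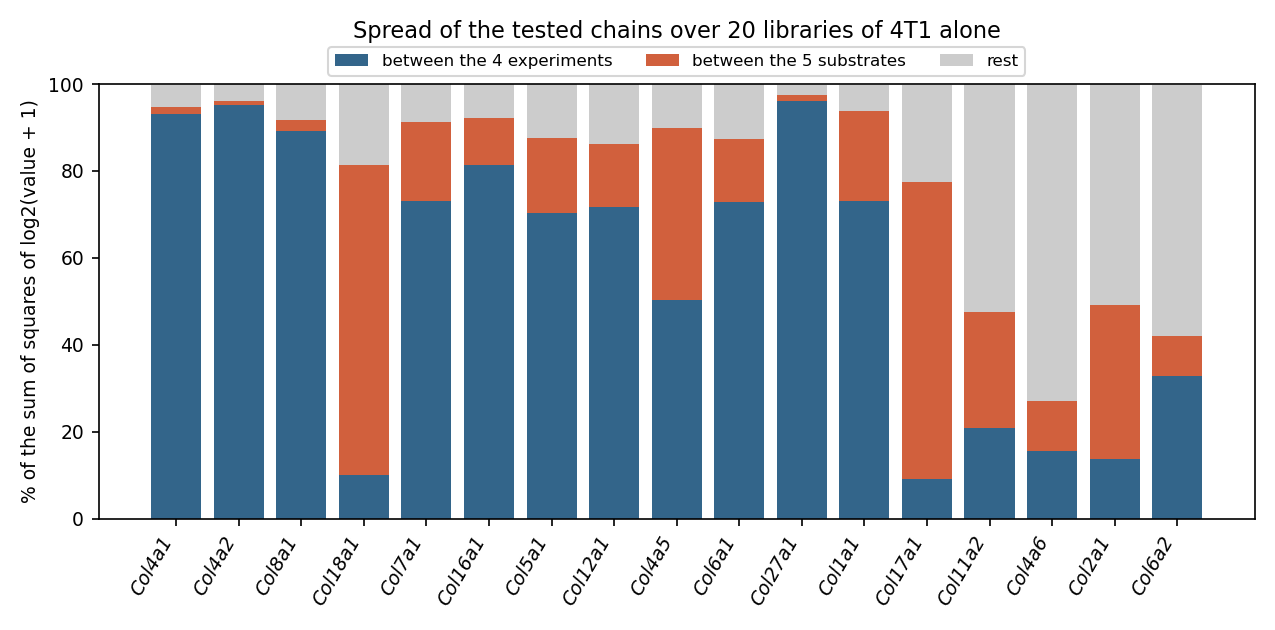
Share of the sum of squares of log2(value + 1) that lies between the 4 experiments, between the 5 substrates and in the rest, as stacked bars in percent, for the 17 tested chains over 20 libraries of 4T1 alone. The blue part is above 89% for Col4a1, Col4a2, Col8a1 and Col27a1, and the orange part is above 68% for Col18a1 and Col17a1.

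Whether the coat under the cells goes with the chains they express was asked in 4T1 alone. Without the block, none of the 17 chains passed in any coat against uncoated plastic (limma, adjusted over all genes tested). The background was 0.0952% of genes for collagen I, 0.0068% for collagen IV and 0% each for fibronectin and vitronectin, so few genes of any kind passed. At an unadjusted p under 0.05 there were 0, 2, 1 and 0 chains, and edgeR also called 0 chains in each of the 4 (0.0748%, 0.0136%, 0% and 0% of all genes). The F test over the 5 substrates called 0 chains with a background of 0.252%, and the direct comparison of collagen I with collagen IV 0 with a background of 0.299%, in each case with 2 chains at an unadjusted p under 0.05 and 0 by edgeR (0.245% of genes in both). With the replicate block the 4 coats against uncoated plastic still called 0 chains, with 0.68%, 0.136%, 0.0068% and 0.0136% of genes past the threshold and 2, 2, 1 and 0 chains at an unadjusted p under 0.05.

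In the comparisons among coats the replicate block, which compares wells of the same experiment, changed the calls for Col18a1, Col1a1 and Col4a5. Between the collagen coats 2 of 17 chains then passed (background 2.04%). Col18a1 measured 181.5, 182.9, 188.6 and 192.9 per M on collagen I and 142.2, 128.1, 124.6 and 136.1 per M on collagen IV in experiments 2 to 5. All 4 collagen I values lie above all 4 collagen IV values, and the log2 difference, collagen I minus collagen IV, was 0.489 ± 0.116 (SE, adjusted p = 0.0187, limma with the block). Without the block the difference was the same, 0.489 ± 0.139 (SE, adjusted p = 0.208).

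Col1a1, a chain of the very protein used as one coat, went the other way. On collagen I it measured 1.663, 0.5957, 1.066 and 0.4145 per M, and on collagen IV 2.915, 1.355, 1.529 and 0.8832 per M, in experiments 2 to 5. It was lower on collagen I in 4 of 4 experiments although the ranges overlap, and the log2 difference was −0.455 ± 0.110 (SE, adjusted p = 0.0214 with the block, 1 without). The levels are close to 1 per M, and with so low a level the added 1 shortens the difference, which edgeR with the block put at −0.862.

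Over all 5 substrates without T cells the block left 1 chain past the threshold, Col4a5, against a background of 2.69% (adjusted p = 0.00368, limma F test). On uncoated plastic Col4a5 measured 19.06, 27.23, 20.63, 24.53 and 28.15 per M in experiments 1 to 5. On fibronectin it measured 22.46, 30.46, 25.79, 38.83 and 34.88 per M, above uncoated plastic in 5 of 5 experiments. On collagen IV it measured 33.53, 25.39, 31.95 and 30.73 per M in experiments 2 to 5, above uncoated plastic in 4 of 4. The groups overlap because experiments differ, and the single comparisons did not pass: the log2 difference with the block was 0.327 ± 0.068 on fibronectin (SE, adjusted p = 0.115) and 0.257 ± 0.074 on collagen IV (SE, adjusted p = 0.223).

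Other chains had a common direction over experiments on a coat without passing the adjusted threshold. Col7a1 on collagen I was below uncoated plastic in 4 of 4 experiments, with 166.2, 81.61, 132.2 and 63.04 beside 227.2, 135.5, 144.6 and 113.2 per M, a log2 difference of −0.586 ± 0.187 with the block (SE, adjusted p = 0.203) and −0.524 ± 0.413 without it (SE, adjusted p = 1). Leaving out experiment 4 in the blocked fit made this −0.749 (adjusted p = 0.0121), the 1 chain called there against 1.74% of genes. Col12a1 and Col5a1 were also lower on collagen I in 4 of 4 experiments, by mean log2 differences of −0.160 ± 0.091 and −0.188 ± 0.096 (SD, n = 4 each).

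Col18a1 was below uncoated plastic in 4 of 4 experiments on collagen IV, with a log2 difference of −0.336 ± 0.111 with the block (SE, adjusted p = 0.353), and in 5 of 5 on fibronectin. With the block and values scaled to the carcinoma epithelial markers, the difference on collagen IV was −0.29 ± 0.062 and passed (SE, adjusted p = 0.0368, limma). Col17a1 followed a like order, with 1.47 ± 0.2462 per M on collagen I and 0.8773 ± 0.1381 on collagen IV (SD, n = 4 each), a log2 difference of 0.393 ± 0.138 (SE, adjusted p = 0.531, limma). For the remaining comparisons, Col2a1 had the smallest p of any chain on collagen I against uncoated plastic in the fit without the block (log2 difference −0.284 ± 0.157, SE, adjusted p = 1), with its highest value, 1.896 per M, on uncoated plastic in experiment 4. Col4a6 on collagen IV had 0.195 ± 0.117, and on vitronectin Col6a1 had 0.506 ± 0.333 and Col6a2 0.255 ± 0.204 (SE, adjusted p = 1 each).

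In co-culture the F test over the 5 substrates called 0 chains without the block (background 0.129%, 1 chain at an unadjusted p under 0.05, 0 by edgeR with 0.0884% of genes) and 1 with it, again Col18a1 (background 1.60%, adjusted p = 0.0467). It measured 112.1 ± 27.25 per M on collagen IV (SD, n = 4) and 163.1 ± 30.59 on collagen I (SD, n = 3), and collagen I was above collagen IV in 3 of 3 experiments that hold both. edgeR with the block called 0 chains (1.51% of genes), with an adjusted p of 0.0772 for Col18a1. The lowest co-culture value, 72.17 per M, was the collagen IV well of experiment 4, which also held the most T cell RNA.

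Adding T cells was the main contrast of the study. Averaged over the 5 substrates, 2 of 17 chains passed without the block, 1 higher and 1 lower, against a background of 25.2% of genes, 13.1% higher and 12.2% lower. The higher chain was Col11a2, a chain of the fibrillar collagen XI, with a log2 difference of 1.448 ± 0.352 (SE, adjusted p = 0.008, limma). The lower chain was Col18a1, at −0.194 ± 0.063 (SE, adjusted p = 0.0275), and Col16a1 came next, at −0.187 ± 0.078 (SE, adjusted p = 0.0719). The median log2 difference of the 17 chains was −0.167, with 16 below 0, beside −0.01 over all genes tested. edgeR also called 2 chains, with 26.9% of genes past the threshold.

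With the replicate block 12 of 17 chains passed, 1 higher and 11 lower, against a background of 45.8%, with 22.4% higher and 23.4% lower. In that fit the lower chains were thus above the background share and the higher ones below it. With values also scaled to the epithelial markers 4 of these 11 turned positive and 1 passed as lower. The background of that scaled fit was 62.3% higher and 0.441% lower. The falls that follow are from the unscaled fit. Among the collagen IV chains Col4a1 fell by 0.179 ± 0.040, Col4a2 by 0.172 ± 0.046, Col4a5 by 0.101 ± 0.036 and Col4a6 by 0.142 ± 0.053 on the log2 scale (SE). Among the fibril-associated and anchoring chains Col12a1 fell by 0.322 ± 0.078, Col7a1 by 0.331 ± 0.091 and Col16a1 by 0.184 ± 0.046. Among the fibrillar chains Col5a1 fell by 0.236 ± 0.054, Col1a1 by 0.202 ± 0.051 and Col27a1 by 0.166 ± 0.048, and Col18a1 fell by 0.179 ± 0.054. The adjusted p-values of these 11 ran from 0.00142 for Col4a1 to 0.0299 for Col4a6 (limma). Col8a1, Col6a1, Col17a1, Col2a1 and Col6a2 did not pass. With and without the block, the fits of T cells added have no term for a difference that varies between experiments. Wells of the same experiment thus count as separate replicates of the T cell difference. The SEs and p-values therefore describe spread between wells and not the spread of that difference between experiments. For Col4a1 the mean log2 difference over pairs of wells was −0.464 in experiment 4 and 0.027 in experiment 1.

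The carcinoma epithelial markers moved in the same direction as these values. The share of carcinoma RNA in the mixture was not itself measured, and a change in the markers' own expression was not tested. In a bulk sample fewer cells of a type and less RNA per cell cannot be told apart. Of the 16 carcinoma epithelial markers 4 were lower with T cells and 0 higher without the block, and 11 lower and 0 higher with it, with a median log2 difference of −0.2. Their summed level was 2930 to 4160 per M in 4T1 alone and 1780 to 3930 in co-culture. That of the T cell markers was 1.66 to 4.02 and 19.7 to 3380 per M, and no T cell marker was at 0 in every library of 4T1 alone.

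When values were scaled so that the mean of the epithelial markers was equal in all libraries, the median of all genes moved to 0.172 and 1 of the 11 falling chains was still called lower with the block. Without the block 1 chain then passed, Col11a2 (1.601, adjusted p = 0.0241), against 5.22% of genes, all of them higher, and Col18a1 stood at 0.003 and Col16a1 at 0.01. With the block and this scaling, an alternative added after the data were seen, 4 chains passed, against 62.8% of genes, 62.3% higher and 0.441% lower. Col11a2 and Col8a1 (0.132 ± 0.044, SE) were higher than 0, Col8a1 below the median of all genes in that fit, 0.157. Col20a1 was among the 4, but it had at most 0.3514 per M in every library of 4T1 alone and entered the fit only through co-cultures in which it was high, so its call is no evidence of a rise. In this fit 4 chains that had fallen were above 0, Col4a1 (0.003), Col4a2 (0.01), Col18a1 (0.002) and Col4a5 (0.076). Below 0 without passing were Col7a1 (−0.151), Col12a1 (−0.149), Col4a6 (−0.061), Col5a1 (−0.059), Col27a1 (−0.021) and Col16a1 (−0.003), and Col1a1 passed as lower (−0.112 ± 0.049, SE, adjusted p = 0.0481).

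**Figure D4:**
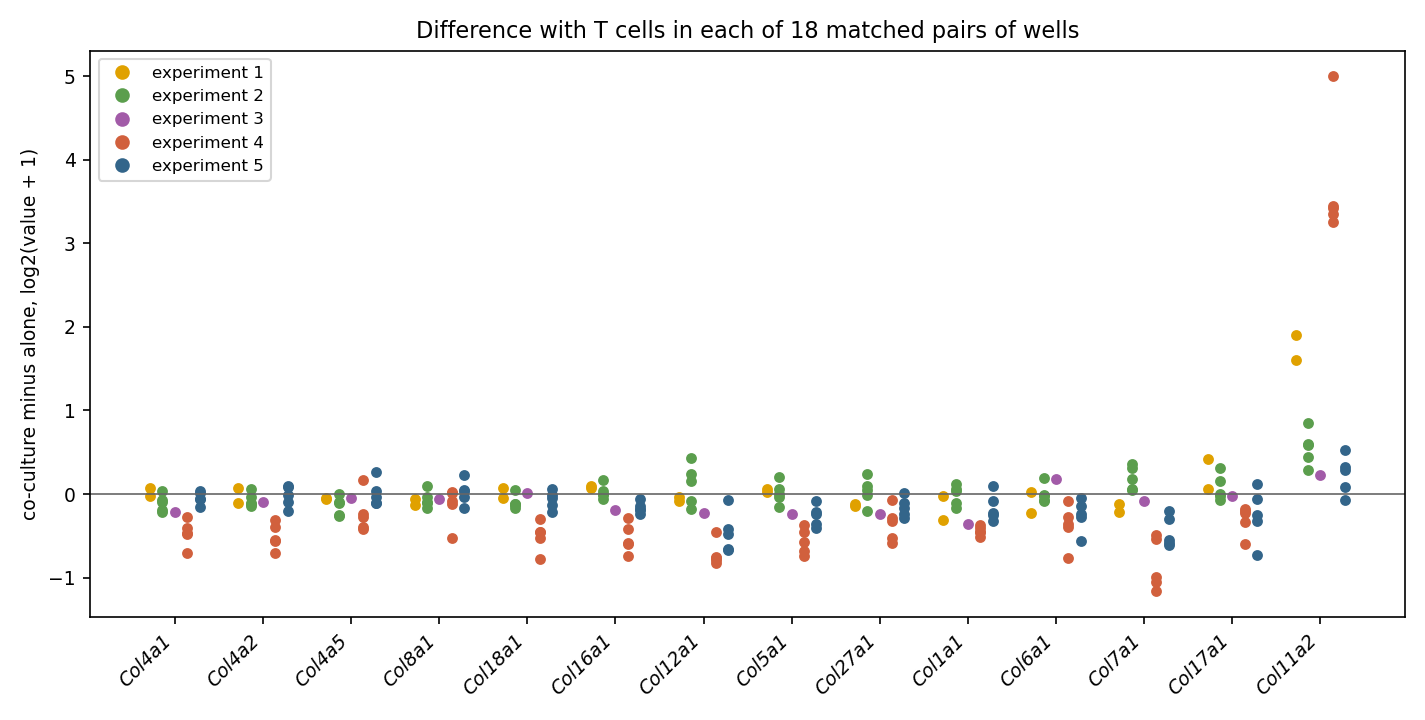
Difference in log2(value + 1), co-culture minus the well without T cells on the same substrate in that experiment, for 14 chains, with 1 point for each of 18 pairs of wells and colour for the experiment. In experiment 4 all points of Col4a1, Col4a2, Col18a1, Col16a1, Col12a1, Col5a1, Col7a1 and Col1a1 are below 0, and Col11a2 is above 3 in all 5 pairs of that experiment, in values not scaled to the epithelial markers.

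The difference with T cells was not the same in each experiment. An F test of it over the 5 experiments called 9 of 17 chains, against a background of 46.4%, so the number itself is near that of genes at large, and edgeR called 10 (42.8%). Experiment 4 carried most of the fall: Col4a1 there measured 379.8 to 484.8 per M with T cells and 584.8 to 649.6 alone, with no overlap, a mean log2 difference of −0.464 ± 0.156 over 5 pairs (SD). Over the 13 pairs of the other experiments it averaged −0.07 ± 0.099 (SD), with 9 pairs lower and 4 higher. Col4a2 went from −0.502 ± 0.152 (SD, n = 5) to −0.046 ± 0.099 (SD, n = 13) and Col18a1 from −0.502 ± 0.175 (SD, n = 5) to −0.061 ± 0.093 (SD, n = 13). Without experiment 4, 0 of 16 chains passed in the comparison of T cells added (1.92% of genes, 1 chain at an unadjusted p under 0.05, limma), and with the block 1, Col11a2 (10.4% of genes).

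The epithelial markers moved in parallel in that experiment. Their mean log2 difference was −0.493 over the 5 pairs of experiment 4 (range −0.81 to −0.349), −0.109 over 5 in experiment 2, −0.075 over 2 in experiment 1 and −0.0158 over 5 in experiment 5, and −0.106 in the pair of experiment 3. With values scaled to those markers the mean difference in experiment 4 was 0.028 for Col4a1, −0.01 for Col4a2 and −0.013 for Col18a1. Other chains did not come near 0 under this scaling. Col8a1 stood at 0.354 and Col4a5 at 0.247, with 0 of 5 pairs lower in each, and Col7a1 at −0.359 and Col12a1 at −0.248. The test of the difference between experiments was then past the threshold for neither Col4a1 (adjusted p = 0.736) nor Col4a2 (adjusted p = 0.976) nor Col18a1 (adjusted p = 0.663, limma).

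Under that scaling 7 chains passed the test over experiments, against 65.8% of genes, Col20a1 among them through its high co-cultures. Col8a1 passed with the scaling (adjusted p = 0.0265) and not without it (adjusted p = 0.182, limma). Col11a2, Col7a1, Col12a1, Col5a1 and Col16a1 were past the threshold with and without it. Without the scaling Col7a1 was higher with T cells in 5 of 5 pairs of experiment 2, by a mean log2 difference of 0.191 ± 0.144, and lower in 5 of 5 of experiment 4, by −0.847 ± 0.311, and of experiment 5, by −0.448 ± 0.186 (SD, n = 5 each). With the scaling these means were 0.299, −0.359 and −0.433. In per M, unscaled, its co-cultures measured 172.7 to 293 beside 166.2 to 227.2 alone in experiment 2, and 54.6 to 92.06 beside 63.04 to 117.1 alone in experiment 5. The adjusted p of the difference between experiments was 1.95e-05 as deposited, 0.000298 with the epithelial scaling and 0.0205 without experiment 4 (limma), where 2 chains passed against 3.08% of genes.

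In unscaled values Col12a1 was lower with T cells in 5 of 5 pairs of experiment 5 too, with a mean log2 difference of −0.459, and in 5 of 5 of experiment 4, with −0.715, while in experiment 2 it was higher in 3 of 5 pairs. With the epithelial scaling the means were −0.446 in experiment 5 and −0.248 in experiment 4. Its adjusted p over experiments was 0.00034, and 0.0117 with the epithelial scaling. For Col5a1 these were 0.000115 and 0.0212, and for Col16a1 8.12e-08 and 0.0478. In experiment 5 Col5a1 and Col16a1 were lower in 5 of 5 pairs, by unscaled means of −0.26 ± 0.126 and −0.159 ± 0.064 (SD, n = 5 each), and −0.245 and −0.144 with the scaling. In experiment 4 the scaling took Col5a1 from −0.568 to −0.089 and Col16a1 from −0.525 to −0.037. Without experiment 4 the difference between experiments passed for none of these 3 chains, with adjusted p of 0.152, 0.226 and 0.113 in the order Col12a1, Col5a1, Col16a1.

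The T cell difference was also compared between substrates, and the F test called 0 of 17 chains, with a background of 0% of genes, 0 chains at an unadjusted p under 0.05 and 0 by edgeR. The smallest p-values were those of Col2a1, Col17a1 and Col6a2, each with an adjusted p of 1. Each substrate holds only 3 or 4 co-cultures, whose experiments differ as described.

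Col11a2, just under 1 per M in 4T1 alone, was the 1 tested chain with a positive T cell difference in the main comparison. It measured 0.4796 to 1.594 per M, with a median of 0.9516, in the 22 libraries of 4T1 alone, and 0.8105 to 57.6 per M in the 18 co-cultures. In experiment 4 it measured 57.6 per M with T cells on collagen IV, 20.2 on uncoated plastic, 18.7 on collagen I, 18.1 on vitronectin and 17.5 on fibronectin, beside 0.762 to 1.07 alone. In experiment 1 it measured 4.97 per M on uncoated plastic and 7.02 on fibronectin, beside 0.97 and 1.14 alone. Those 7 co-cultures lie above all libraries of 4T1 alone, with 196 to 1625 reads behind each value.

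In the other experiments the rise was small. Co-cultures of Col11a2 measured 1.83 to 2.53 per M in experiment 2, beside 0.884 to 1.59 alone, and 0.81 to 1.78 per M in experiment 5, beside 0.48 to 1.3 alone, and the pair of experiment 3 measured 1.32 and 0.972. It was higher with T cells in 17 of 18 pairs, the exception being vitronectin in experiment 5. The test of the difference between experiments gave an adjusted p of 4.35e-12 (limma), and 0.00446 without experiment 4. Without experiment 4 its overall log2 difference with T cells was 0.573 (adjusted p = 0.0632), and with the block 0.541 (adjusted p = 0.00286). edgeR, which adds no 1 to the values, put it at 3.084 over all libraries.

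**Figure D5:**
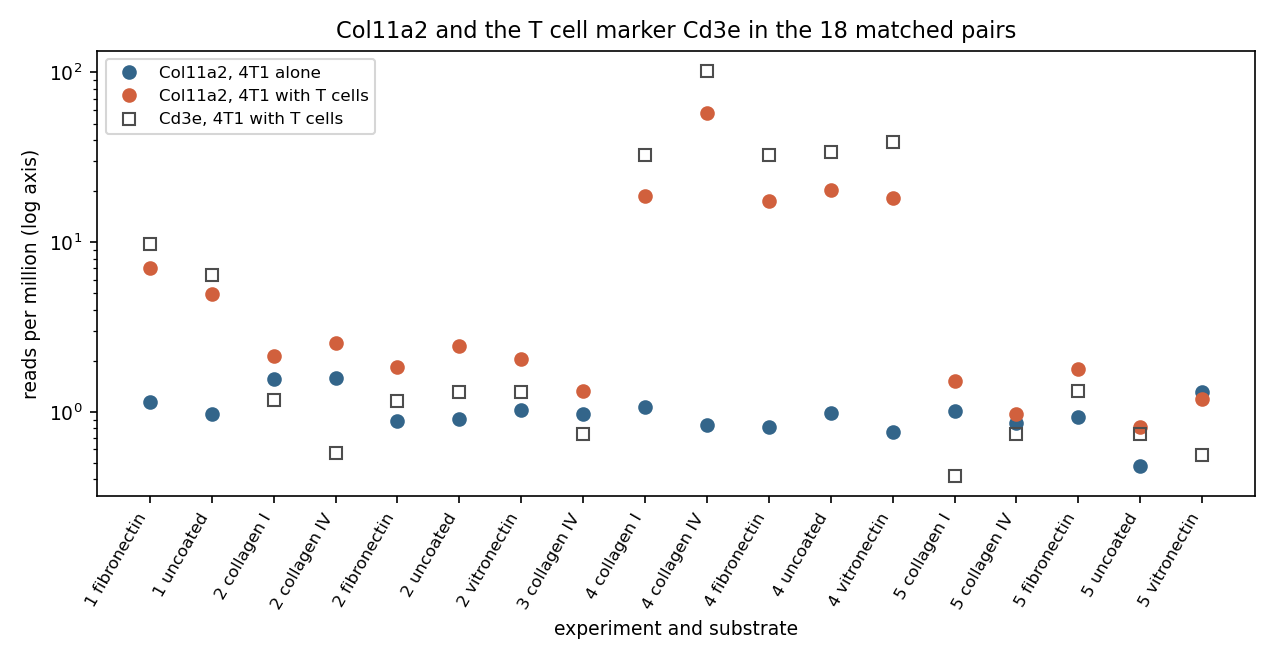
Level of Col11a2 in 4T1 alone and in co-culture, and of the T cell marker Cd3e in co-culture, in reads per M of scaled library size (log axis), for the 18 pairs of wells by experiment and substrate. Col11a2 is high in the co-cultures in which Cd3e is high, with both at their maximum on collagen IV in experiment 4 (57.6 and 102).

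T cell RNA went up and down with Col11a2 across the experiments. Cd3e, a subunit of the T cell receptor complex, had levels of 32.6 to 102 per M where T cells were added in experiment 4, 6.39 to 9.78 in experiment 1 and 0.417 to 1.32 in experiments 2, 3 and 5. The rise of Col11a2 over its paired well, divided by Cd3e, was 0.448 to 0.568 in experiment 4 and 0.601 to 0.626 in experiment 1, while the Cd3e level itself ran from 6.39 to 102 per M among these 7 co-cultures. In the other experiments that quotient ran from −0.191 to 1.63, where both quantities are near 1 per M. Some markers of other spleen cells were also higher in co-cultures, while others in the same lists differed little. The summed B cell markers ran from 0.0395 to 0.236 per M alone and from 0.948 to 140 with T cells, mostly Ighm. Erythroid and platelet markers ran from 0.337 to 1 and from 0.332 to 25.5 per M, macrophage markers from 2.71 to 5.23 and from 3.97 to 7.89. The pair of endothelial markers in the table ran from 0.147 to 0.534 and from 0.589 to 75.6 per M, through Pecam1, while Cdh5 averaged 0.142 and 0.111. Whether the Col11a2 reads come from carcinoma cells, from T cells or from other cells added with them cannot be told apart in mixed libraries, and libraries of T cells without carcinoma cells were not analysed here.

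Some chains too low to be tested were also highest in that well. In the collagen IV co-culture of experiment 4 Col20a1 measured 3.935 per M, beside 0.3452 in its paired well, Col23a1, a transmembrane collagen, 2.339 beside no read, and Col9a3 1.382 beside 0.1479. In the other 4 co-cultures of experiment 4 Col23a1 measured 0.4828 to 1.016 per M, above the highest library of 4T1 alone (0.2695 per M). Col20a1 was higher with T cells in 16 of 18 pairs and Col23a1 in 14 of 18. Exons of Tcfl5 on the opposite strand cover 6.07% of the exon bases of Col9a3, and the library kit named in the labels does not mark the strand, so its reads cannot be told apart there.

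Genes that process collagen and genes that bind it were taken as lists, chosen with earlier results of these data known. Of 29 processing genes 23 were tested with T cells added. Of these 3 were lower and 0 higher without the block, and 12 were lower and 1 higher with it, beside backgrounds of 12.2% and 13.1% and of 23.4% and 22.4%. The median log2 difference without the block was −0.111, beside −0.2 for the 16 carcinoma epithelial markers. Values of this list were not scaled to those markers. A smaller share of carcinoma RNA therefore cannot be told apart from a change in these genes. Loxl1, a cross-linking oxidase, changed by −0.251 ± 0.064 (SE, adjusted p = 0.0101), Serpinh1, the collagen chaperone of the endoplasmic reticulum, by −0.219 ± 0.069 (SE, adjusted p = 0.0235) and Bmp1, a propeptide protease, by −0.21 ± 0.074 (SE, adjusted p = 0.0373, limma). Mia3, which loads collagen into transport vesicles, was the higher one with the block (0.061 ± 0.022, SE, adjusted p = 0.0238).

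Of 10 collagen receptor genes 6 were tested. Without the block 0 passed, beside 25.2% of all genes, and with it 1, Ddr1, was lower, beside 45.8% (−0.133 ± 0.032, SE, adjusted p = 0.00225, limma). Receptor values were likewise not scaled to the epithelial markers. The 3 smallest p-values without the block were those of Itga10, Ddr1 and Itga1, with log2 differences of 0.192 ± 0.118, −0.136 ± 0.086 and 0.156 ± 0.119 (SE, adjusted p from 0.219 to 0.324). Of the receptor genes, Itgb1, the shared beta subunit of the collagen-binding integrins, had 1270 ± 94.9 per M, Itga2 165 ± 26.1 and Ddr2 150 ± 14.6 in 4T1 alone (SD, n = 22 each).

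Markers of other cells that could bring in collagen were checked in 4T1 alone. Of 12 stromal markers 8 were in the table, and 3 of these averaged 1 per M or more there, Postn (36.8 ± 9.54), Pdgfra (6.53 ± 1.56) and Acta2 (1.75 ± 1.33 per M, SD, n = 22 each), with a summed level of 31 to 64.3 per M. In co-culture the sum of these markers was 25.8 to 169 per M, in which Thy1, which T cells also carry, rose from 0.0118 to 21.6 per M on average. Their part in the collagen levels was not tested.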

How the data were processed

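RNA of 40 libraries was sequenced as single ends of 75 bases. Alignment and counting tools listed in the submitters' processing notes are STAR 2.6 and featureCounts, whose version is not stated, besides edgeR 3.31.7 and the mm10 build. The deposited signal can be turned back into reads: multiplied by each library's scaled size, 100% of the values came out whole within 0.01. Columns sum to 956225 to 1037118. Of 21349 lines, 1 repeated line (Cd3d) and 1 line with a cell that holds no number (Ldha) were dropped, and 19 symbols had turned into dates.

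The main test was limma 3.58.1 (R 4.3.3, with a mean-variance trend) of log2(value + 1) on the 14701 genes at 1 or more in at least 3 libraries, in a model of 10 group means (30 residual degrees of freedom). Adjusted p-values (Benjamini-Hochberg) cover all genes of a comparison and were read at 0.05. The quasi-likelihood test of edgeR 4.0.16 on the recovered reads called 3950 genes with T cells added, beside 3710. Both tests were tried on simulated data with changed genes. Exon lengths came from GENCODE M21 and promoter windows from RefSeq, GRCm38.p6. Python 3.11.15 drew the figures.

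The replicate number marks the experiment in the labels, in which a well with and a well without T cells were run together. After removal of group means, log2 values of 156 library pairs that share a number correlated at a median of 0.478 (lowest 0.041), and those of 562 other pairs at −0.131, and 37 of 40 libraries were closest to one of their own number. Replicates are separate experiments, and no 2 libraries of a group agreed within counting noise.

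Named in each comparison were the chains past the threshold, up to 12, or the 3 with the smallest p where fewer passed, and for levels the chains averaging 1 or more without, or only with, T cells. Partner chains were described together. Members and gene lists were chosen with earlier results of these data known. Alternatives were other pseudocounts, filters and scalings, edgeR, the block by experiment, and leaving out each library or experiment.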

Additional observations from a re-analysis of the deposited data

Results flagged for a closer look

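Values apart from the rest of their group were looked for in 112 groups of 4 or 5 libraries, over 14 chains. Of these 112 groups 8 held one, where chance gives about 1 group in 20 if groups are independent. The chains share libraries and experiments, so the groups are not independent and that rate cannot tell whether the values are chance. A single library lay far from the others of its group, and 7 of the 8 belong to experiment 2. Among these 7, Col7a1 and Col1a1 are chains already described above as higher in experiment 2 than in experiment 5. Col7a1 was high there on uncoated plastic alone (227 per M) and with T cells on uncoated plastic (293 per M) and on fibronectin (249 per M). Col1a1 was high on uncoated plastic alone (2.23 per M) and in the co-cultures on uncoated plastic (1.87 per M) and collagen IV (2.64 per M), and Col5a1 in the co-culture on collagen IV (47.1 per M). The other was Col11a2 in the collagen IV co-culture of experiment 4, at 57.6 per M.

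The T cell difference varied between experiments for 9 chains, by the F test of that difference (limma, adjusted over all genes tested, background 46.4%). The adjusted p was 4.35e-12 for Col11a2, 8.12e-08 for Col16a1, 1.92e-05 for Col4a2, 1.95e-05 for Col7a1, 3.25e-05 for Col4a1, 0.000115 for Col5a1, 0.00034 for Col12a1, 0.00317 for Col18a1 and 0.0458 for Col1a1. The causes were not tested.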

How the results depend on the processing

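The number of chains called with T cells added depended on the block and on single experiments, 2 and 4 among them. Against 2 of 17 without changes it was 12 with the replicate block and 12 with edgeR and the block, 6 with no filter (of 28 chains, 4 higher and 2 lower), 5 after quantile normalisation, and 1 when scaled to the column total or to the epithelial markers. It was 10 without experiment 2, 1 without experiment 3 and 0 without experiment 4. With the replicate block it was 1 without experiment 4 and 4 with the epithelial scaling. Leaving out 1 library gave 1 to 7 chains. The count was 4, 7, 6 and 5 without the co-cultures of experiment 2 on fibronectin, collagen I, collagen IV and vitronectin, and 1 without those of experiment 4 on fibronectin, collagen I or vitronectin. Col18a1 missed the threshold without any one of these last 3 (adjusted p = 0.0513, 0.0699 and 0.0706). It turned in sign to 0.003 with the epithelial scaling and to 0.002 with that scaling and the block, and Col16a1 turned to 0.01 with the scaling. The share of all genes called moved with the setting too. That share was 25.2% without changes, 45.8% with the block, 5.22% with the epithelial scaling and 1.92% without experiment 4. With the block it was 10.4% without experiment 4 and 62.8% with the epithelial scaling. Counts given without a share, that without experiment 2 among them, cannot be set against all genes. They are not read as results about the chains.

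Between collagen I and collagen IV the count moved from 0 to 2 with the replicate block, under limma, edgeR, without experiment 4 and with the epithelial scaling alike, and leaving out 1 library gave 0 to 1, the 1 being without the collagen IV co-culture of experiment 4. For the 5 substrates alone it moved from 0 to 1 with the block under limma and edgeR, to 3 with the block without experiment 4 and to 2 with the block and the scaling. In co-culture it moved to 1 with the block, 2 with the block without experiment 4 and 1 with the block and the scaling. Under limma the block also moved the share of all genes called. Between the collagen coats this share went from 0.299% to 2.04%. Over the 5 substrates it went from 0.252% to 2.69% alone and from 0.129% to 1.60% in co-culture. Collagen I against uncoated plastic gave 1 with the block without experiment 4 (1.74% of genes) and collagen IV 1, Col18a1, with the block and the scaling. The experiments called 22 of 28 chains with no filter. The T cell difference over experiments called 16 after quantile normalisation and 2 without experiment 4 (3.08% of genes), and 8 to 11 when 1 library was left out. The block changed no other count. The cause was not tested, and counts given here without a share are not read as results about the chains. At levels near 1 per M a library held few reads, which limits Col1a1, Col17a1, Col11a2 alone and the 11 untested chains.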
